A study of Rattus norvegicus with 9 samples.

Results

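The genes described here encode subunits of the respiratory chain and of ATP synthase, together with the complex I assembly factors that carry the same name stem. They were taken by gene symbol from a table of kidney transcript levels in rats, as every symbol that begins with Nduf, Uqcr, Atp5 or Cox followed by a digit of 4 to 8, plus Sdha, Sdhb, Sdhc and Sdhd. The rule itself uses no measured value. The rule found 93 of the 19367 genes in the table, namely 39 genes of complex I, 8 complex I assembly factors, 4 of complex II, 8 of complex III, 18 of complex IV and 16 of ATP synthase. The genes were assigned to these classes by symbol alone, here and below, so that Ndufa4, Cox7a2l and Atp5if1 count by their names. Of these, 89 reached at least 1 FPKM (fragments per kilobase, a level scaled to sequencing depth and transcript length) in at least 3 libraries and were tested among 13127 genes.

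The study set the kidney of the spontaneously hypertensive rat (SHR), an inbred strain with high blood pressure, against that of the normotensive Wistar-Kyoto strain (WKY) from the same origin, and asked what a sodium-glucose cotransporter inhibitor did to it. There were 3 groups of 3 libraries. Treated SHR received dapagliflozin, an inhibitor of the renal glucose carrier SGLT2, by mouth at 10 mg/kg each day for 8 weeks, starting at an age of 3 months. Untreated SHR (written SHR here) and untreated WKY were given distilled water by the same route and for the same time, according to the treatment protocol, whereas another label field reads saline for both. The strain field names the Wistar-Kyoto strain for all 9 libraries, so the groups rest on the titles and the genotype field. The labels give 3 rats a group but tie no library to an animal, so that p-values measure the spread between these libraries. Whole kidney RNA was used, in which fewer cells of a type and less RNA per cell cannot be told apart.

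Complexes I, III and IV pass electrons from NADH to oxygen and pump protons across the inner mitochondrial membrane, complex II feeds in electrons from succinate, and ATP synthase lets the protons flow back while it makes ATP. A small part of these enzymes is encoded by mitochondrial DNA. None of 26 symbols searched for those genes was in the deposited data, so they could not be analysed here. The reabsorbing segments of the nephron, above all the proximal tubule and the thick ascending limb, are packed with mitochondria, which power the sodium pump.

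Promoters of respiratory chain genes are known to bind the factors NRF1, YY1, the ETS-family factor GABP (also called NRF-2) and the estrogen-related receptors (ERR). The promoters of 4 genes whose transcripts passed the test between treated SHR and WKY are printed because they hold these letters in different combinations: Uqcrc1 and Uqcrc2 encode the paired core proteins of complex III, Sdha the flavoprotein of complex II, and Ndufv3, which fell, a small subunit of the NADH-binding arm of complex I. The sequences are those of RefSeq (build GRCr8), each 300 bases long from 250 bases before the gene's start to 50 after, 5′ to 3′ on the strand of the gene, with motif matches in capitals.
Uqcrc1 (chr8:118467973-118468272, plus strand): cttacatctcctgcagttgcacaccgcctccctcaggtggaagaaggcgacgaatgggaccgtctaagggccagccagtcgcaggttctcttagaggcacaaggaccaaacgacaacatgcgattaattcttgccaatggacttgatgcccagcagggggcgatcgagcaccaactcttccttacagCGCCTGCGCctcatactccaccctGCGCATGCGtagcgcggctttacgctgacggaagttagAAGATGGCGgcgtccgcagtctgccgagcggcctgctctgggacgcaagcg
Uqcrc2 (chr1:184598990-184599289, plus strand): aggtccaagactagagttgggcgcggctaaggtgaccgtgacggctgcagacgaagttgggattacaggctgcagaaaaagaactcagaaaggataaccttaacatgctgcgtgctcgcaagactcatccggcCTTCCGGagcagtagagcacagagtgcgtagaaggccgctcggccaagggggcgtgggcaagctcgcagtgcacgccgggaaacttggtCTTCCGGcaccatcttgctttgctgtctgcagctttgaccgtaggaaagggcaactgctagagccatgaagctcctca
Sdha (chr1:30764303-30764602, plus strand): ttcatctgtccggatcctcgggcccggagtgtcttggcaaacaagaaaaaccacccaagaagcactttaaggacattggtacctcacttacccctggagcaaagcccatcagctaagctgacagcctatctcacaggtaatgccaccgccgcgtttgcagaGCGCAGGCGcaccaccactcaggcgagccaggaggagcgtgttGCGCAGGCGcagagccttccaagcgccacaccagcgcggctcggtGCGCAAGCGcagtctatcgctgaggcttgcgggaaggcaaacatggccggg
Ndufv3 (chr20:9613536-9613835, plus strand): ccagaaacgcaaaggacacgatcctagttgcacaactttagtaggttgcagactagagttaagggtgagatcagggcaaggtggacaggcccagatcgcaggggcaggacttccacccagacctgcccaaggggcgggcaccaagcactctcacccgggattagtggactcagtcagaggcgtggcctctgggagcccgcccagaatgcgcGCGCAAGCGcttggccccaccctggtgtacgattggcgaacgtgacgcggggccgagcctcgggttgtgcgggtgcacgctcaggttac

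The motifs were searched as exact letters on both strands, and overlapping matches were each counted. The NRF1-type motif was GCGCANGCG (N is any base), the ETS-type motif CCGGAAG, the YY1-type motif AAGATGGCG and the ERR-type motif TCAAGGTCA. Among the printed promoters, Uqcrc1 holds 2 NRF1-type matches and 1 YY1-type match, Sdha 3 NRF1-type matches, Uqcrc2 2 ETS-type matches, and Ndufv3 1 NRF1-type match. A promoter sequence was matched to 80 of the 93 genes, and 44 of them (55.0%) held at least 1 of the 4 motifs, against 30.1% of the 10315 promoters of all tested genes and 15.9% of all 27457 promoters. The NRF1-type motif was in 19 (23.8%) of the respiratory promoters, against 12.9% of those of tested genes and 6.26% of all. The ETS-type motif was in 23 (28.7%), against 17.6% and 9.22%, and the YY1-type motif in 10 (12.5%), against 3.71% and 1.93%. The ERR-type motif was in 2, those of Atp5mc3 and Sdhd (2.5%, against 0.262% and 0.412%). A match describes these letters only. Of the other genes whose transcripts changed between treated SHR and WKY, Ndufa12 (1 NRF1-type match) and Uqcrh (1 ETS-type match) also held a motif, and the windows of Ndufv1 and Ndufa10 held none of the 4. Among the genes with no entry were Atp5pd, Cox4i2, Cox6a1, Cox6c, Cox7a1, Ndufa10l1, Ndufa8, Ndufaf6, Ndufb9, Ndufs6, Uqcr11 and Uqcrb.

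The ATP synthase and complex IV transcripts were among the most abundant of the set. By mean FPKM over the 9 libraries, the median tested gene stood at 613 for ATP synthase, 663 for complex IV (15 of 18 genes tested), 336 for complex II and 326 for complex III. It stood at 223 for complex I (38 of 39 genes tested) and 16.6 for the complex I assembly factors, which build the complex and are not part of it. Atp5f1b, the catalytic beta subunit of ATP synthase, averaged 1919 FPKM and Cox8a, a small subunit of complex IV, 1921 FPKM. The highest of the other complexes were Ndufa4 (705 FPKM), named for complex I but found with complex IV, Uqcr11 of complex III (542 FPKM), the membrane anchor Sdhc of complex II (461 FPKM) and the assembly factor Ndufaf8 (60.2 FPKM). The lowest tested ones were Cox6b2 (0.81 FPKM), Ndufa4l2 (3.45 FPKM), Ndufaf7 (7.53 FPKM), Uqcrb (188 FPKM), Sdha (277 FPKM) and Atp5if1, the inhibitor protein of ATP synthase (441 FPKM). All 93 genes together held 5.88%, 6.52% and 6.68% of the summed FPKM in treated SHR, 5.87%, 5.98% and 5.63% in SHR, and 5.06%, 6.10% and 5.49% in WKY.

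**Figure D1:**
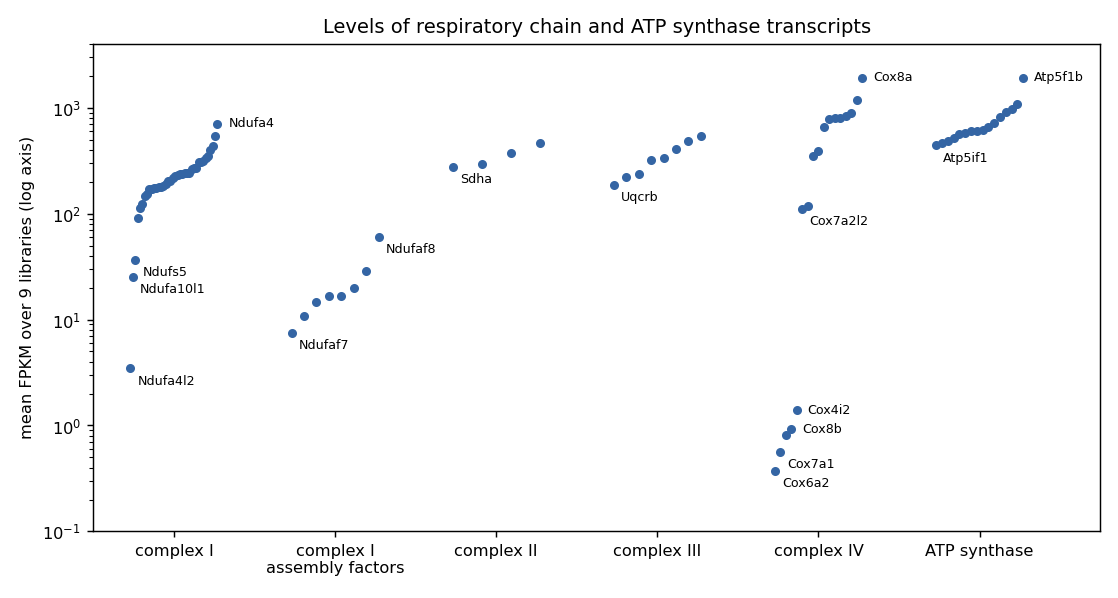
Mean FPKM over the 9 libraries of each gene (points, sorted within its complex) on a log axis; the 2 genes under 0.1 FPKM, Ndufs6 and Cox8c, lie off the axis. Apart from Ndufs5, Ndufa10l1, Ndufa4l2 and the restricted isoforms of complex IV near 1 FPKM, the plotted subunits sit between 91.3 and 1921 FPKM, and the assembly factors lie between 7.53 and 60.2 FPKM.

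Several subunits exist as a general and a tissue-restricted isoform, and the kidney libraries held almost solely the general one in all 3 groups. Cox4i1 ran from 719 to 1017 FPKM over the 9 libraries, while Cox4i2, its lung-type isoform, ran from 0.70 to 2.99. The heart and muscle isoforms Cox6a2 (0 to 0.770 FPKM), Cox7a1 (0.13 to 1.06 in the row with that symbol) and Cox8b (0 to 1.79) stood beside Cox6a1 (963 to 1312), Cox7a2 (291 to 441) and Cox8a (1796 to 2063). Cox6b2, the testis isoform, ran from 0.18 to 1.33 FPKM and Cox6b1 from 631 to 960. Ndufa4l2, a relative of Ndufa4 known to be induced by low oxygen, ran from 2.27 to 4.52 FPKM, against 634 to 780 for Ndufa4. The identifier of the row listed as Cox7a1 has no match in the current annotation (GRCr8), which gives the name to LOC687508, a row outside the symbol rule at 2.47 to 5.19 FPKM. Its highest value was 1.78% of the lowest of Cox7a2, and for the pairs by the table's own symbols that share was at most 0.713%. None of the restricted isoforms that reached the filter passed the test between any groups. The rows listed as Cox6a2, Cox7a1, Cox8c and Ndufs6 were too low to test, at 1.06 FPKM or less in every library. Ndufs6 was listed at 0.33 FPKM in treated SHR 1 and at 0 in the other 8 libraries, and the current annotation gives its identifier to a pseudogene.

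The clearest difference in the set lay between a pair of genes with like names. Ndufa10 encodes an accessory subunit of complex I, and Ndufa10l1 is named as Ndufa10-like and lies on another chromosome (6, with Ndufa10 on chromosome 9, in GRCr8). Ndufa10l1 stood at 42.5, 39.8 and 39.4 FPKM in treated SHR, 40.0, 35.2 and 32.2 FPKM in SHR and 0.290, 0 and 0 FPKM in WKY. All 6 SHR libraries, treated or not, lay far above the WKY libraries, 2 of which listed it at 0. The difference passed the test for treated SHR against WKY (adjusted p = 9.95e-08, limma with Benjamini-Hochberg adjustment over all genes tested, as for every adjusted p here) and for SHR against WKY (adjusted p = 1.35e-07), and it did so in each alternative fit. No fold change is given against values listed at 0.

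Ndufa10 itself stood at 109.6, 114 and 103 FPKM in treated SHR, 90.8, 100.03 and 100.4 FPKM in SHR and 122, 139 and 133 FPKM in WKY. The WKY libraries were the highest, the SHR libraries the lowest, and the treated SHR libraries lay between them with no overlap. Ndufa10 fell in SHR against WKY (log2 change -0.43, SE 0.08, adjusted p = 0.0243) and in treated SHR against WKY (log2 change -0.27, SE 0.08, adjusted p = 0.0438), and did not pass the test in treated SHR against SHR (log2 change 0.17, SE 0.08, adjusted p = 0.356). The call in SHR against WKY was lost when WKY 2, WKY 3 or any 1 of the SHR libraries was left out, with adjusted p up to 0.112, and with the mean of proximal tubule markers as a covariate (adjusted p = 0.0725). That in treated SHR against WKY was lost without any 1 library other than treated SHR 1, with adjusted p up to 0.137.

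How alike the sequences of the pair are was not measured here. Reads of 50 bases can be split between genes of like sequence, so the separate levels are uncertain. Summed per library, the pair gave 152, 154 and 143 FPKM in treated SHR, 131, 135 and 133 FPKM in SHR, and 122, 139 and 133 FPKM in WKY. Ndufa10l1 made up 24.3% to 30.6% of that sum in the 6 SHR libraries and at most 0.237% in WKY. The sum averaged 133 ± 2.27 FPKM in SHR and 132 ± 8.64 FPKM in WKY (SD, n = 3 each; 2-sided exact permutation test, p = 0.9), so that no difference beyond the spread was found for the pair as a whole. Treated SHR averaged 149.5 ± 5.99 FPKM, and its 3 libraries lay above all those of the other groups. The exact permutation p was 0.1 against either group, the smallest that 3 libraries against 3 can give.

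**Figure D2:**
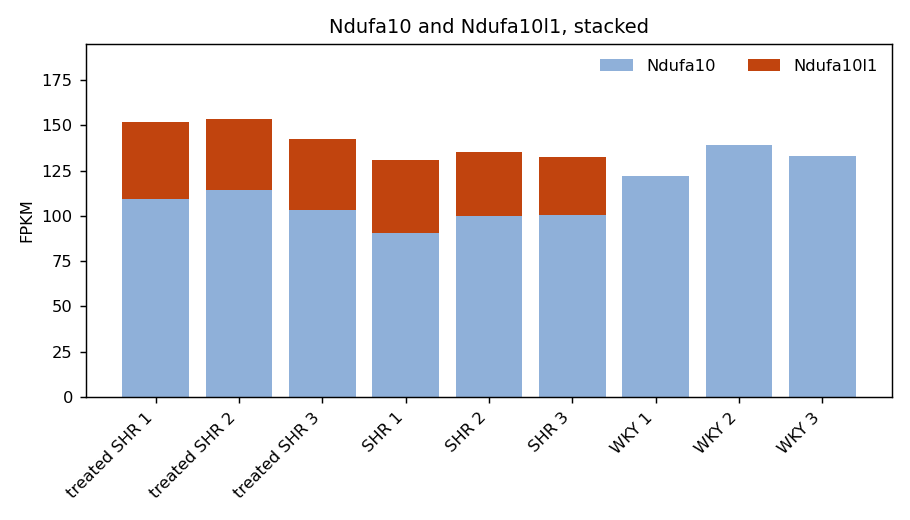
FPKM of Ndufa10 (blue) and Ndufa10l1 (red), stacked, in each library of treated SHR, SHR and WKY. The red share is present in the 6 SHR libraries at 32.2 to 42.5 FPKM and at most 0.290 FPKM in the WKY libraries, while the bar heights of SHR and WKY overlap.

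Between SHR and WKY, Ndufa10l1 and Ndufa10 were the only members of the set to pass the test, 1 higher and 1 lower. That is 2.25% of the 89 tested, against 2.96% of all 13127 genes. Groups that did not overlap were fewer than in the table as a whole: 4 members were higher in all SHR libraries than in all WKY libraries (4.49%, against 20.3% of all genes) and 1 was lower (1.12%, against 8.11%). Beside Ndufa10l1, the higher ones included Ndufv1, a core subunit of complex I, and the accessory subunit Ndufa7, neither of which passed the test. The median log2 change of the 89 members was 0.09, beside 0.07 over all genes, and 72 members had a change above 0 (80.9%, against 64.1% of all genes).

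That small shift depended on the scaling and on WKY 1. Under median-of-ratios rescaling with all libraries the median was 0.0076 for the members and 0.0026 over all genes, and 49 of the 89 members were above 0 (55.1%, against 50.5%). Quantile normalization, by contrast, kept the median at 0.085 for the members, beside 0.0004 over all genes. With it 68 members were above 0 (76.4%, against 50.0%). WKY 1 was the lowest of the 9 libraries for 66 of the 89 members (74.2%), against 30.1% of all genes, and it was the highest for none of them. The summed FPKM of the set was 33948, 35001 and 31883 in SHR, against 28517, 35978 and 31955 in WKY, so that the SHR libraries lay within the spread of WKY. Without WKY 1 the median log2 change of the members in SHR against WKY was -0.0017, and 43 of the 89 were above 0, while the median over all genes was 0.058. Without WKY 2 it was 0.16 for the members and 0.091 over all genes.

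Markers of other cell types also differed between SHR and WKY. Of 7 principal cell markers, the water channel gene Aqp3 (log2 change 1.58, adjusted p = 0.006) and Fxyd4 (log2 change 1.06, adjusted p = 0.0209) rose, and the summed level of the list did not overlap, at 1338 to 1663 FPKM in SHR against 654 to 1237 FPKM in WKY. The endothelial gene Vwf fell (log2 change -1.65, adjusted p = 0.0115), 1 of 7 in its list. The other 6 endothelial markers had changes above 0, with a median log2 change of 0.32 over the list, and none of them passed the test. None of the 16 proximal tubule, 6 intercalated cell or 7 podocyte markers passed the test. All 6 intercalated cell markers were above 0 (median log2 change 0.79). Their summed level did not overlap, at 772 to 1191 FPKM in SHR against 480.1 to 654 in WKY. All 7 podocyte markers were also above 0 (median 0.81), while 7 proximal tubule markers were above 0 and 9 below (median -0.19). The part of these cells in the members' levels was not tested beyond the proximal tubule covariate, with which the median of the members was 0.11, beside 0.07 over all genes.

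By complex, the median log2 change in SHR against WKY was 0.11 for complex I, 0.08 for its assembly factors, 0.06 for complex II, 0.14 for complex III, 0.04 for complex IV and 0.08 for ATP synthase. The medians of the assembly factors, complex II and complex IV turned negative when the values were rescaled by median of ratios (-0.0012, -0.02 and -0.04). Under quantile normalization they stayed above 0 (0.0073, 0.07 and 0.03). Without WKY 1 those of the assembly factors (-0.012), complex II (-0.013), complex IV (-0.079) and ATP synthase (-0.0086) were negative, and those of complex I (0.014) and complex III (0.069) were smaller. The members with the smallest p that did not pass were, on the higher side, Ndufb6 (log2 change 0.20, adjusted p = 0.277), Ndufa3 (0.23, adjusted p = 0.295), Cox8b (0.69 at levels near 1 FPKM, adjusted p = 0.306) and Atp5po, the stalk protein of ATP synthase known as OSCP (0.23, adjusted p = 0.311). On the lower side they were Ndufv3 (-0.24, adjusted p = 0.267), the assembly factor Ndufaf6 (-0.16, adjusted p = 0.36), Ndufb8 (-0.15, adjusted p = 0.36) and Ndufs1 (-0.06, adjusted p = 0.591). The other core subunits followed per complex did not pass either: Sdha (0.10, adjusted p = 0.513), Uqcrc1 (0.13, adjusted p = 0.437), Cox4i1 (0.11, adjusted p = 0.677) and Atp5f1b (0.01, adjusted p = 0.962).

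**Figure D3:**
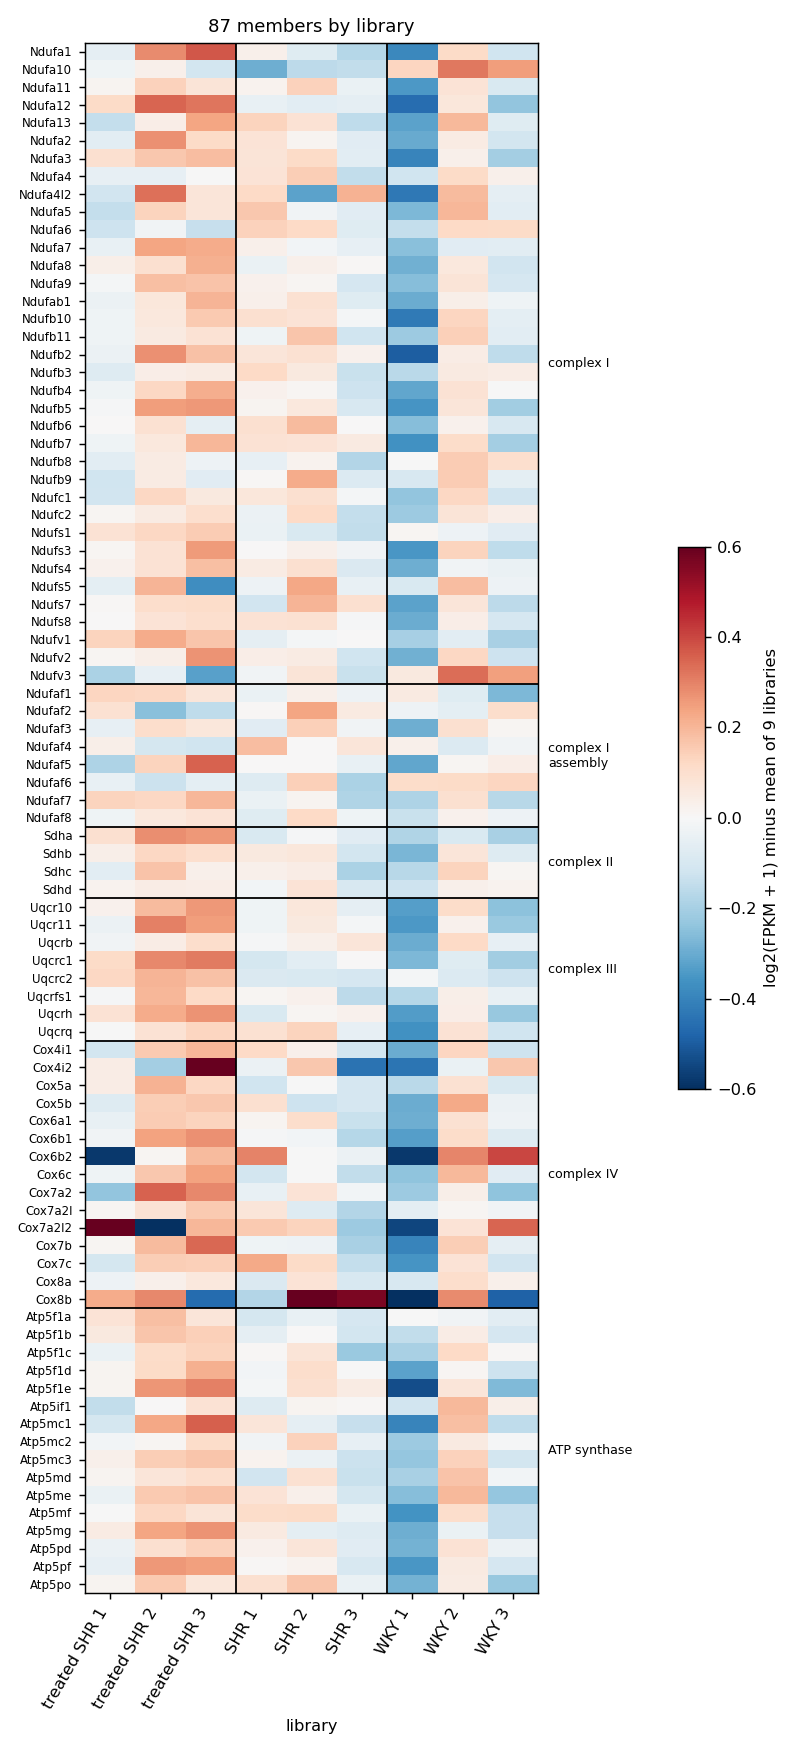
Deviation of log2(FPKM + 1) from the mean of the 9 libraries for tested genes (rows, by complex) in each library of treated SHR, SHR and WKY (columns); colours stop at 0.6 in either direction, and 2 of the 89 tested members are left out, one of them Ndufa10l1, which is near 0 in WKY. Treated SHR 3 holds the highest value of 33 of the 89 tested members, treated SHR 2 of 20 and treated SHR 1 of 3, and WKY 1, mostly blue, holds the lowest of 66.

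Dapagliflozin-treated SHR against untreated SHR gave no member that passed the test, and none of the 13127 genes did (0.0% called; limma). At an unadjusted p under 0.05 (limma), 7 members were higher in treated SHR (7.87%), beside 1289 of all genes (9.82%). In the other direction 0 members were lower (0.0%), beside 708 of all genes (5.39%). The treated libraries lay above all SHR libraries for 17 of the 89 members (19.1%, against 12.6% of all genes) and below them for 0 (0.0%, against 6.44%). The median log2 change of the members was 0.09, beside 0.04 over all genes, and 72 were above 0 (80.9%, against 57.4%). Under the rescaling by median of ratios the median was 0.04 for the members and -0.01 over all genes. Under quantile normalization it was 0.11 for the members and 0.02 over all genes, and 76 members were above 0 (85.4%, against 53.8%). Without SHR 3 the median of the members was 0.053, beside 0.052 over all genes, and 63 were above 0. Without treated SHR 3 it was 0.056 beside 0.0073 over all genes, and without treated SHR 1 it was 0.15 beside 0.075.

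Among the members with the smallest p in this comparison were Uqcrc2, Uqcrc1, Sdha and Ndufs1, all higher in treated SHR. Sdha, the flavoprotein that oxidises succinate, stood at 294.5, 335 and 329.7 FPKM in treated SHR, against 258, 274 and 263 FPKM in SHR. Every treated library was above every SHR library (log2 change 0.27, SE 0.08, adjusted p = 0.281). Uqcrc1 stood at 253, 285 and 289 FPKM in treated SHR, against 217, 223 and 234 FPKM in SHR, and the groups did not overlap (log2 change 0.29, SE 0.087, adjusted p = 0.281).

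Uqcrc2, the partner of Uqcrc1, was measured at 239, 253 and 248 FPKM in treated SHR, against 207, 206 and 205 FPKM in SHR. The SHR libraries were within 2 FPKM of each other and all below the treated ones (log2 change 0.26, SE 0.068, adjusted p = 0.281).

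Ndufs1, the largest iron-sulfur subunit of complex I, read 131, 135 and 138 FPKM in treated SHR, against 120.4, 116 and 112 FPKM in SHR. Its treated libraries too were all higher (log2 change 0.22, SE 0.064, adjusted p = 0.281). Of the 7 nuclear-encoded core subunits of complex I, 7 had a log2 change above 0 in treated SHR against SHR, the lowest being 0.0049 for Ndufs8, and Ndufs1 and Ndufv1 were among those that did not overlap between the groups. Of 28 accessory subunits (without Ndufa4, Ndufa4l2, Ndufa10l1 and the untested Ndufs6) 20 were above 0 and 8 below. Over all genes tested, 57.4% were above 0. These counts depended on the scaling. Of the 38 tested complex I genes, 21 were above 0 under median-of-ratios rescaling (55.3%, against 47.0% of all genes). Under quantile normalization 32 were (84.2%, against 53.8%).

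In complex IV, Cox5a and Cox7b lay higher in all treated libraries, and Cox4i1, a central nuclear-encoded subunit, overlapped widely between the groups (log2 change 0.07, SE 0.14, adjusted p = 0.841). In ATP synthase, the alpha subunit Atp5f1a (1022, 1095 and 1015 FPKM in treated SHR, against 898, 936 and 902 FPKM in SHR), the beta subunit Atp5f1b (1990.5, 2148 and 2117 FPKM in treated SHR, against 1841, 1915 and 1772 FPKM in SHR) and the ring gene Atp5mc3 did not overlap. Their log2 changes were 0.19, 0.18 and 0.16, and none passed the test (adjusted p = 0.346, 0.463 and 0.502). The inhibitor protein gene Atp5if1 had nearly the same mean in both groups, 435 ± 35.2 FPKM in treated SHR and 435 ± 14.9 FPKM in SHR (SD, n = 3 each). The supercomplex factor Cox7a2l had a log2 change of 0.15 (adjusted p = 0.395). The like-named Cox7a2l2 ran from 63.1 to 163 FPKM within treated SHR alone. Whether it shares reads with Cox7a2 or with Cox7a2l was not tested, so the separate levels are uncertain.

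On the lower side, no member separated the groups. The smallest p belonged to the assembly factors Ndufaf2 (log2 change -0.20, SE 0.11, adjusted p = 0.38) and Ndufaf4 (log2 change -0.15, SE 0.079, adjusted p = 0.38), followed by Ndufa6 (log2 change -0.16, adjusted p = 0.468), Ndufv3 (-0.16, adjusted p = 0.479) and Cox8b (-0.32 at levels near 1 FPKM, adjusted p = 0.669).

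The 3 treated libraries were not alike. Treated SHR 3 lay above every SHR library for 58 of the 89 members and treated SHR 2 for 51, but treated SHR 1 for 19 (65.2%, 57.3% and 21.3%, against 47.7%, 40.0% and 23.5% of all genes). Treated SHR 1 was below every SHR library for 16 members (18.0%, against 30.0% of all genes). With that library left out, 830 genes passed the test between treated SHR and SHR (6.32%), and of the members only Sdha was among them (log2 change 0.33, adjusted p = 0.0496).

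Levels of nephron segment markers differed along with this comparison, although no marker passed the test in it. The summed FPKM of 16 proximal tubule markers ranged from 4360 to 8401 in treated SHR and from 9826 to 10742 in SHR, and from 9048 to 11133 in WKY. All 16 were lower on average in treated SHR than in SHR. The summed level of 7 principal cell markers ranged from 2001 to 3708 FPKM in treated SHR, from 1338 to 1663 in SHR and from 654 to 1237 in WKY, and that of 6 intercalated cell markers from 1056 to 1795 FPKM in treated SHR, from 772 to 1191 in SHR and from 480.1 to 654 in WKY. For 8 thick ascending limb markers the ranges overlapped (3193 to 4543 FPKM in treated SHR, 3614 to 6311 in SHR and 3252 to 4727 in WKY). None of these 4 lists had a marker at 0 in every library, and 7 skeletal or heart muscle markers summed to at most 1.26 FPKM in any library. The part of these segments in the members' levels was not tested, but a fit with the mean log2 level of the proximal tubule markers as a covariate was made. In treated SHR against SHR the median log2 change was then 0.19 for the members, beside 0.02 over all genes, and 82 members were above 0 (92.1%, against 54.6%). With it 0 members passed the test. The covariate itself ran from 6.58 to 7.46 in treated SHR and from 7.41 to 7.97 in SHR, so this fit cannot cleanly separate it from treatment.

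Treated SHR against WKY, which combines strain and drug and shares its libraries with both comparisons above, gave 10 members that passed the test, 8 higher and 2 lower. That is 11.2% of the 89, against 22.9% of all genes. The groups did not overlap for 19 members that were higher (21.3%, against 28.2% of all genes) and for 3 that were lower (3.37%, against 10.4%). The median log2 change of the members was 0.18, beside 0.11 over all genes, and 77 were above 0 (86.5%, against 64.6%). By complex the median was highest for complex III (0.28), followed by ATP synthase (0.19), complex I (0.19), complex IV (0.18), complex II (0.12) and the assembly factors (0.09). Without WKY 1 the median of the members was 0.092, beside 0.094 over all genes, and 66 were above 0. Complex I then stood at 0.087, complex IV at 0.08, complex II at 0.05 and the assembly factors at 0.016, all below the median of all genes, and complex III (0.25) and ATP synthase (0.13) above it. Without WKY 2 complex IV stood at 0.28, ATP synthase at 0.3, complex II at 0.19 and the assembly factors at 0.15. Rescaling by median of ratios moved the median of all genes to -0.01 and that of the members to 0.05, with the assembly factors (-0.04) and complex II (-0.02) below 0. With this rescaling 5 members passed, among them Ndufa10l1 and Uqcrc1 higher and Ndufa10 and Ndufv3 lower. Quantile normalization gave a median of 0.01 over all genes and 0.20 for the members, with the assembly factors at 0.02 and complex II at 0.20.

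In complex III, 3 of 8 genes passed the test as higher, beside 16.8% of all genes. Uqcrc1 stood at 253, 285 and 289 FPKM in treated SHR, against 193, 222 and 202 FPKM in WKY, with no overlap (log2 change 0.42, SE 0.087, adjusted p = 0.0155). For Uqcrc2 the values were 239, 253 and 248 FPKM in treated SHR, against 218, 207 and 201 FPKM in WKY, and the groups were again apart (log2 change 0.24, SE 0.068, adjusted p = 0.0361). Uqcrh, the hinge protein that helps cytochrome c bind, stood at 511, 561 and 579 FPKM in treated SHR, 451, 484 and 489 FPKM in SHR and 381, 493 and 411 FPKM in WKY. The treated libraries were the highest, although WKY 2 lay above all 3 SHR libraries and close to the lowest treated one (log2 change 0.37, SE 0.11, adjusted p = 0.0467).

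In complex I, Ndufv1 and Ndufa12 rose beside Ndufa10l1, and Ndufv3 and Ndufa10 fell. Ndufv1, which binds NADH, was measured at 246, 262 and 252 FPKM in treated SHR, 216, 222 and 225 FPKM in SHR and 196, 215 and 196 FPKM in WKY. The 3 groups formed steps without overlap, treated SHR highest and WKY lowest (log2 change 0.33, SE 0.072, adjusted p = 0.0186).

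Ndufa12, an accessory subunit that sits on the matrix arm, gave 261, 308 and 301 FPKM in treated SHR, 233, 231 and 232 FPKM in SHR and 175, 253 and 204 FPKM in WKY. Treated SHR lay above both other groups, while the WKY libraries were spread on both sides of SHR (log2 change 0.47, SE 0.13, adjusted p = 0.0348). Ndufv3 went the other way, with 233, 257 and 212 FPKM in treated SHR, 263, 281 and 242 FPKM in SHR and 278, 336 and 316 FPKM in WKY. All treated libraries were below all WKY libraries, and SHR overlapped with both (log2 change -0.40, SE 0.11, adjusted p = 0.0323). Ndufs1, beside it in the same arm of the complex, had a log2 change of 0.15 that did not pass the test (adjusted p = 0.117).

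In complex II, Sdha rose and the other 3 subunits did not pass. Sdha stood at 294.5, 335 and 329.7 FPKM in treated SHR, against 243, 258 and 241 FPKM in WKY, and all treated libraries were above all WKY libraries (log2 change 0.37, SE 0.08, adjusted p = 0.0181). The iron-sulfur subunit Sdhb averaged 397 ± 13.0 FPKM in treated SHR, 376 ± 25.7 in SHR and 352 ± 42.3 in WKY (SD, n = 3 each). Sdhc and Sdhd, the membrane anchors, had log2 changes of 0.05 and 0.06 in treated SHR against WKY.

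No gene of complex IV or ATP synthase and no complex I assembly factor passed the test in treated SHR against WKY. Atp5mg (log2 change 0.34, adjusted p = 0.0559) and Atp5f1e (0.44, adjusted p = 0.0778) came nearest. Atp5f1b averaged 2085 ± 83.5 FPKM in treated SHR, 1843 ± 71.4 in SHR and 1829 ± 129.9 in WKY (SD, n = 3 each; log2 change 0.19, adjusted p = 0.245 in treated SHR against WKY). Cox4i1 averaged 941 ± 106 FPKM in treated SHR, 896 ± 71.3 in SHR and 833 ± 126 in WKY (log2 change 0.18, adjusted p = 0.369).

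**Figure D4:**
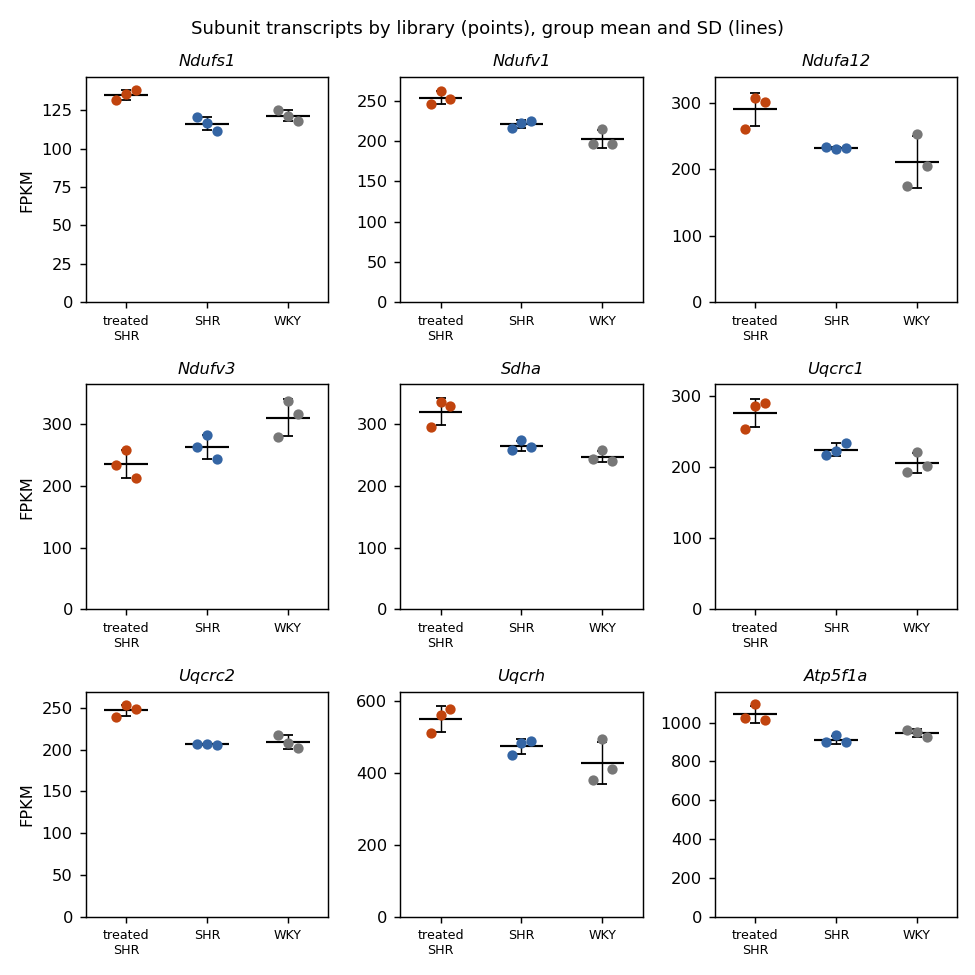
FPKM in each library (points, with group mean and SD as lines) of 7 subunit genes that passed the test in treated SHR against WKY, beside Ndufs1 and Atp5f1a, which did not; treated SHR, SHR and WKY run from left to right and each axis starts at 0. The treated libraries lie above those of SHR in every panel except that of Ndufv3, where they lie below those of WKY.

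Apart from that of Ndufa10l1, which held in every fit, these calls depended on single libraries. The members called in treated SHR against WKY were 2 without WKY 1 and 1 without WKY 3, against 18 without WKY 2, and 18 without treated SHR 1 but 3 without treated SHR 2 and 2 without treated SHR 3. Leaving out SHR 1, SHR 2 or SHR 3, which enter only through the shared estimate of the spread, gave 5, 6 and 6. With only the libraries of the groups compared, and with the proximal tubule covariate, Ndufa10l1 alone was called (31 of all genes were called with the covariate). Markers moved here too: 3 of the 16 proximal tubule markers passed as lower, and 7 of 7 principal cell and 6 of 6 intercalated cell markers passed as higher. Of the 16 proximal tubule markers, 15 had changes below 0 and 1 above (median log2 change -0.86). Among the further lists, 3 of 3 distal convoluted tubule markers, 1 of 7 podocyte markers and 2 of 8 thick ascending limb markers rose, 1 of 8 thick ascending limb and 1 of 7 endothelial markers fell, and 0 of 5 smooth muscle, 0 of 2 leukocyte and 0 of 1 brown fat markers tested passed. The other 6 endothelial markers had changes above 0, with a median log2 change of 0.43 over the list. Whether the segment mix contributed to the subunit levels was not tested. The proximal tubule covariate ran from 6.58 to 7.46 in treated SHR and from 7.89 to 8.11 in WKY, without overlap. The fit with it therefore cannot separate the covariate from this comparison.

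**Figure D5:**
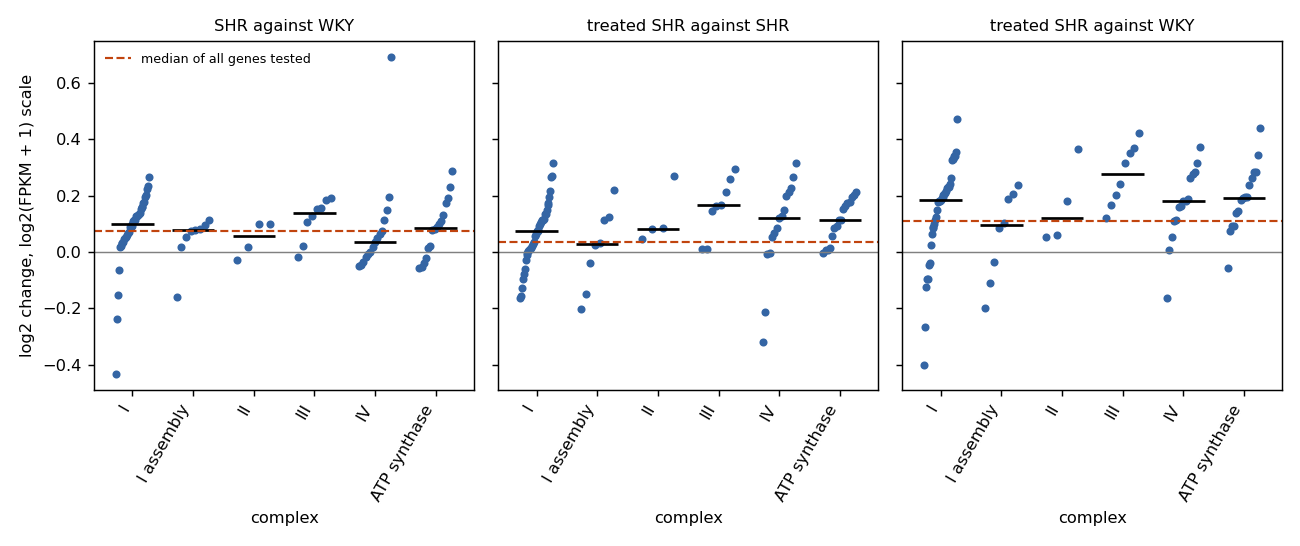
Log2 change of each tested gene (points, sorted within its complex, without Ndufa10l1), median of the complex (black line, also without Ndufa10l1) and median of all 13127 genes (dashed line) in the 3 comparisons. The points of complex III lie at or above the median of all genes in treated SHR against WKY, and those of complex I spread from -0.40 to 0.47.

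The genes around the respiratory chain were described by lists of named factors. In treated SHR against SHR no gene of any of these lists passed the test. In treated SHR against WKY, 5 of 16 citric acid cycle genes rose and 0 fell, with a median log2 change of 0.17 over the list beside 0.11 over all genes. Ogdh, the catalytic subunit of 2-oxoglutarate dehydrogenase, averaged 144 ± 4.25 FPKM in treated SHR, against 106 ± 9.74 in WKY (SD, n = 3 each; log2 change 0.43, adjusted p = 0.0142). Citrate synthase, Cs, averaged 105 ± 13.7 FPKM in treated SHR, against 77.2 ± 9.87 in WKY (log2 change 0.43, adjusted p = 0.0343). Of 12 genes of pyruvate dehydrogenase, its kinases and phosphatases and the pyruvate carriers, 2 rose, the kinase gene Pdk1 and Pdhx. Over that list 6 were above 0 and 6 below (median log2 change -0.02).

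Among complex IV assembly factors 4 of 26 rose and 2 fell in treated SHR against WKY. Pet100, which helps assemble complex IV, stood at 78.8, 86.4 and 88.7 FPKM in treated SHR, 70.1, 79.4 and 84.1 FPKM in SHR, and 41.3, 46.4 and 42.5 FPKM in WKY. All 6 SHR libraries were above all WKY libraries, and the gene rose in treated SHR against WKY (log2 change 0.95, adjusted p = 0.000666) and in SHR against WKY (log2 change 0.83, adjusted p = 0.00176). Cox10, which makes the heme A precursor, rose (log2 change 0.53, adjusted p = 0.014), and Cox16 and Cmc1 fell (log2 change -0.63, adjusted p = 0.0129 for Cox16 and log2 change -0.40, adjusted p = 0.0146 for Cmc1). Assembly factors of the other complexes that rose were Acad9 and Ecsit for complex I (2 of 9), Sdhaf4 for complex II (1 of 4), Uqcc1 and Uqcc2 for complex III (2 of 8 genes of its list) and Atpaf1 for ATP synthase (1 of 3), with 0 lower.

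Of 20 regulators of mitochondrial biogenesis, the coactivator gene Pprc1 rose and Polg2, the accessory subunit of the mitochondrial DNA polymerase, fell in treated SHR against WKY. Among 75 mitochondrial ribosome genes 11 rose and Mrpl4 fell, the last also in SHR against WKY (log2 change -0.85, adjusted p = 0.00211). Of 20 genes of mitochondrial import and mass, Immt of the inner membrane cristae rose and the chaperone Hspe1 fell. None of 4 ATP, phosphate and uncoupling carriers tested passed. The shares of these lists called can be read against 16.8% of all genes called higher and 6.09% called lower.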

How the data were processed

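Kidney RNA of 9 libraries (3 per group) was sequenced as single-end reads of 50 bases on a BGISEQ-500, per the labels' protocols. The authors deposited 1 table of FPKM values per gene and library, with 2 decimals. HISAT2 2.0.4, Bowtie2 2.2.5 and the build Rnor_6.0 are named in the submitters' processing notes; for the program behind the FPKM, its annotation, filters and strand setting the answer is the same: not given in the sources used here. The deposited FPKM summed to between 563643 and 589838 per library. Read depth is unknown, so no counting error could be given, and 0 was treated as listed at 0.

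Genes with at least 1 FPKM in at least 3 libraries were kept, log2(FPKM + 1) was fitted by group over all 9 libraries with limma 3.58.1 (R 4.3.3, intensity trend), and p-values were adjusted by Benjamini-Hochberg over all genes tested; passed or called means an adjusted p under 0.05. Fold changes on this scale understate changes of low genes. The fitting script was tested on simulated data with planted changes larger than those of the called members other than Ndufa10l1. That test does not show how well changes of the members' size are found. Exact permutation tests used scipy 1.17.1; tables and figures used Python 3.11.15 with numpy 2.4.6, pandas 2.3.3 and matplotlib 3.10.9. Libraries were grouped by their titles.

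The members, the gene and marker lists, the motifs and the named-gene rule were chosen with earlier results of these data known. The values of 1 member are not reported here, although it counts in the totals. Otherwise named were every called member (up to 20 per comparison), with fewer than 10 called the 5 members of smallest p in each direction, Ndufa10 and Ndufa10l1, a core subunit per complex, the isoform pairs, Cox7a2l, the highest and lowest gene of each complex and up to 4 called genes of each list. Members named because their groups did not overlap or they came nearest the threshold were picked after their values were seen. A reference identifier was matched for 92 of the 93 members. Alternatives were 2 other scalings, pseudocount 0.1, no filter or 5 FPKM, no trend, fits of the compared groups only, a replicate block, a proximal tubule covariate and leaving out each library.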

Additional observations from a re-analysis of the deposited data

How the results depend on the processing

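Ndufa10l1 kept its call against WKY in every alternative. In SHR against WKY the members called were 1 with the proximal tubule covariate and 1 to 2 with a library left out; in treated SHR against SHR they were 0 to 1 with a library left out and 0 otherwise. Among the 10 called in treated SHR against WKY, 5 remained under median-of-ratios rescaling (median log2 change of the members 0.0465), 1 in the fit of the compared groups alone, 1 with the proximal tubule covariate, and 1 to 18 members were called with a library left out. Quantile normalization called 12 (median log2 change of the members 0.204), and without a filter 10 were called, with the row listed as Cox7a1 gained and Uqcrh lost. The cause of these moves was not tested beyond the fewer libraries in some fits. Of values not called, Atp5f1b in SHR against WKY turned negative under median-of-ratios rescaling (-0.0692) and ran from -0.0271 to 0.0689 with a library left out, and with the proximal tubule covariate Ndufa6 (0.0091), Ndufv3 (0.0699) and Cox8b (0.015) turned positive in treated SHR against SHR.

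Genes called in the whole table, 388 in SHR against WKY, were 196 without WKY 1, 167 without WKY 3, 170, 191 and 212 without SHR 1, SHR 2 and SHR 3, and 626 without treated SHR 1. In treated SHR against WKY, 3010 became 806 without WKY 1, 593 without WKY 3, 1076 without treated SHR 2, 945 without treated SHR 3 and 4791 without treated SHR 1. With the replicate block the members called were 2, 0 and 10, of which 9 were shared in treated SHR against WKY (Uqcrc2 lost, Uqcr11 gained). Deviations of same-numbered libraries correlated at -0.33 to 0.46, and 3 of 9 pairs exceeded 0.1. For libraries with different numbers the range was -0.53 to 0.33, and 9 of 18 pairs exceeded 0.1. Deviations from a mean of 3 libraries are not independent, so these values cannot decide whether the numbers pair the libraries. Unknown depth limits what can be said of genes near 0 FPKM.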

Other observations

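Some rows that the symbol rule did not reach belong to the same enzymes under the current annotation (GRCr8), and they were picked after their values were seen. The row of Ndufs6, a complex I subunit, under its provisional symbol LOC679739 averaged 169 ± 4.99 FPKM in treated SHR, 172 ± 9.79 FPKM in SHR and 159 ± 10.4 FPKM in WKY (SD, n = 3 each), and passed no test. A pseudogene of Ndufs5, LOC100363268, averaged 309.6 ± 17.1 FPKM in treated SHR, 303 ± 26.6 FPKM in SHR and 299 ± 13.4 FPKM in WKY, while Ndufs5 itself ran from 28.0 to 43.0 FPKM over the 9 libraries; reads of genes of like sequence may be assigned to either row. The pseudogene row of Uqcr10, RGD2320734, averaged 99.5 ± 8.14 FPKM in treated SHR, 80.5 ± 5.69 FPKM in SHR and 76.7 ± 9.92 FPKM in WKY, and passed the test in treated SHR against WKY (limma, log2 change 0.38, adjusted p = 0.039). LOC687508, now named Cox7a1, averaged 4.35 ± 0.73 FPKM in treated SHR, 3.48 ± 1.21 FPKM in SHR and 2.87 ± 0.458 FPKM in WKY.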
